A study of Mus musculus with 6 samples.

Results

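The genes described here are those that ERK signalling switches on to restrain itself or to carry its output: the phosphatase genes Dusp1, Dusp4, Dusp5 and Dusp6, the inhibitor genes Spry2, Spry4, Spred1 and Spred2, and the transcription factor genes Etv4 and Etv5. They were taken by gene name from the spots of 6 single-colour Agilent arrays. Of the 10 genes listed, 9 had a probe of that name, with 16 probes of 1 spot each among 41174 non-control probes. Dusp5 had none and is not analysed here. RNA came from proliferating satellite cells, stem cells that lie beside the muscle fibre, taken from skeletal muscle of female mice. The Magic-F1 group, with 3 samples, came from mice that the series describes as Magic-F1+/+, and the control group, with 3 samples, carries the word MLC3F in its titles, whose meaning the labels do not give. Magic-F1 is a designed factor built from parts of hepatocyte growth factor (HGF), and it activates the HGF receptor MET. The labels give neither the ages of the mice nor the promoter of the transgene. The triplicates are labelled biological, while the source names of all 6 samples end in rep1. No animal or culture is named for any of them, so the p-values reflect the spread among 3 samples a group, and that spread may be technical.

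ERK is the last kinase of the cascade that runs from activated receptors such as MET through RAS, RAF and MEK. When it is active, cells transcribe inhibitors of the same cascade. Dual-specificity phosphatases (Dusp genes) remove the activating phosphates from ERK and related kinases, while Sprouty (Spry) and Spred proteins act further up, between the receptor and RAF. Etv4 and Etv5, of the PEA3 branch of ETS transcription factors, are induced by fibroblast growth factor and other receptor signals and carry them to further genes. In muscle stem cells Sprouty1 is known for restraining growth factor signals as cells return to quiescence. The comparison asks which of these transcripts differed between Magic-F1 and control satellite cells. Phosphorylated ERK was not measured in these data.

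The arrays read the genes through 60-base probes, and some genes through stretches that gave different answers. Spred1 is shown because its 3 probes did not agree. The sequences of 2 of them follow, 5′ to 3′, as the scanner files give them, on the plus strand of chromosome 2 in mm9. Both read without a stop codon from their first base, while the third Spred1 probe has a stop codon in each forward frame.
Spred1, chr2:116997721-116997780, higher in Magic-F1: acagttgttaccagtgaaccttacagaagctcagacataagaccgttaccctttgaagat
Spred1, chr2:117003056-117003115, not above background: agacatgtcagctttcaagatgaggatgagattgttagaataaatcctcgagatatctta

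Promoters are shown for 3 genes that did different things: Dusp1, which did not pass the test, Dusp6, which rose, and Spry2, whose brightest probe had the largest fall. Each run spans 250 bases before to 50 after the start in RefSeq's GRCm38.p6 table. Capitals mark the letters CCGGAA (a form of the site bound by ETS factors) and TGACG (the short core of the cAMP response element). Both strands were searched. Shorter or other forms of the ETS site were neither searched for nor marked.
Dusp1, chr17:26508423-26508722, minus strand: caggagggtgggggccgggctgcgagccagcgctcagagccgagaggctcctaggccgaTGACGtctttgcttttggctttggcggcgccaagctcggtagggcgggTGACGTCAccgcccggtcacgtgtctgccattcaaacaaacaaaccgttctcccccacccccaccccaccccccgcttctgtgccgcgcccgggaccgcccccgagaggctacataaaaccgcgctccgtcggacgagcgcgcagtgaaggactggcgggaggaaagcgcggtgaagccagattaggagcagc
Dusp6, chr10:99262981-99263280, plus strand: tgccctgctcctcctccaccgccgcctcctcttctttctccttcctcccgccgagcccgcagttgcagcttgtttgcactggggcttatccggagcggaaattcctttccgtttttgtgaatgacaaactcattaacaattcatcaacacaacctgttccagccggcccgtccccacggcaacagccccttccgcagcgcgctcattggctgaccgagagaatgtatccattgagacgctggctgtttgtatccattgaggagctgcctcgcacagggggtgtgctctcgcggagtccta
Spry2, chr14:105896770-105897069, minus strand: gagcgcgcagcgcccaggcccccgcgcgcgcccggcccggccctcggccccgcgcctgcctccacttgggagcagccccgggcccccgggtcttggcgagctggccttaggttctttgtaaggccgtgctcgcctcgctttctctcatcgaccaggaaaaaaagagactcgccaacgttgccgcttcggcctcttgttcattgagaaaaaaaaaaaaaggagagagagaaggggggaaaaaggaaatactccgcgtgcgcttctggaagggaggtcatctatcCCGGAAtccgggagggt
Dusp1 held 3 copies of TGACG counted over both strands, and 2 of them overlap in the full element TGACGTCA, which 1.79% of 32851 promoters of this length hold. The Spry2 window held 1 CCGGAA, downstream of the start, a motif found in 14.9% of promoters, and the Dusp6 window held neither motif. TGACG was present in 20.8% of promoters. Such matches describe the letters of these windows only.

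The ERK genes did not move as 1 block: in Magic-F1 cells Dusp4, Dusp6, Spred1 and Etv5 were higher, Spry2, Spred2 and Etv4 were lower by their brightest probes, and Dusp1 did not pass the test. Signals are log2 ratios of the processed signal to the 75th percentile of its own array, and testing required that either group have the probe well above background on each of its 3 arrays. Of the 9 genes with a probe, 8 were tested, each represented by its brightest tested probe. Of these, 7 were called by limma at a Benjamini-Hochberg adjusted p of 0.05, 4 higher and 3 lower, where 88.3% of all 14908 tested genes were called, 40.6% higher and 47.7% lower. Spred2, 1 of the 3 lower, passed the filter through the control arrays alone. It is also in the counts of called and non-overlapping genes and probes that follow. With detection required on 6 of 6 arrays, 6 of 7 genes were called. Of the 8 tested genes, 7 were called with at least a 2-fold change, against 52.7% of all tested genes. By fitted folds 5 of the 8 were called with at least a 4-fold change, against 23.5%, and these 5 include Spred2, for which only a smaller bound holds. The groups did not overlap for 7 of the 8 genes, against 89.8% of all genes. By probe, 11 of 12 tested were called, 8 higher and 3 lower, against 87.7% of all tested probes, 41.3% higher and 46.5% lower. Of the probes 9 were called with at least a 2-fold change and 7 with at least a 4-fold change, against 52.3% and 22.9%, and for 11 the groups did not overlap, against 89.1%. The share called is thus near that of the whole array. The median log2 change of the 8 genes was 1.05, beside −0.15 over all tested genes. RNA of whole samples cannot tell fewer cells of a type from less RNA per cell, and this holds for every result here.

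**Figure D1:**
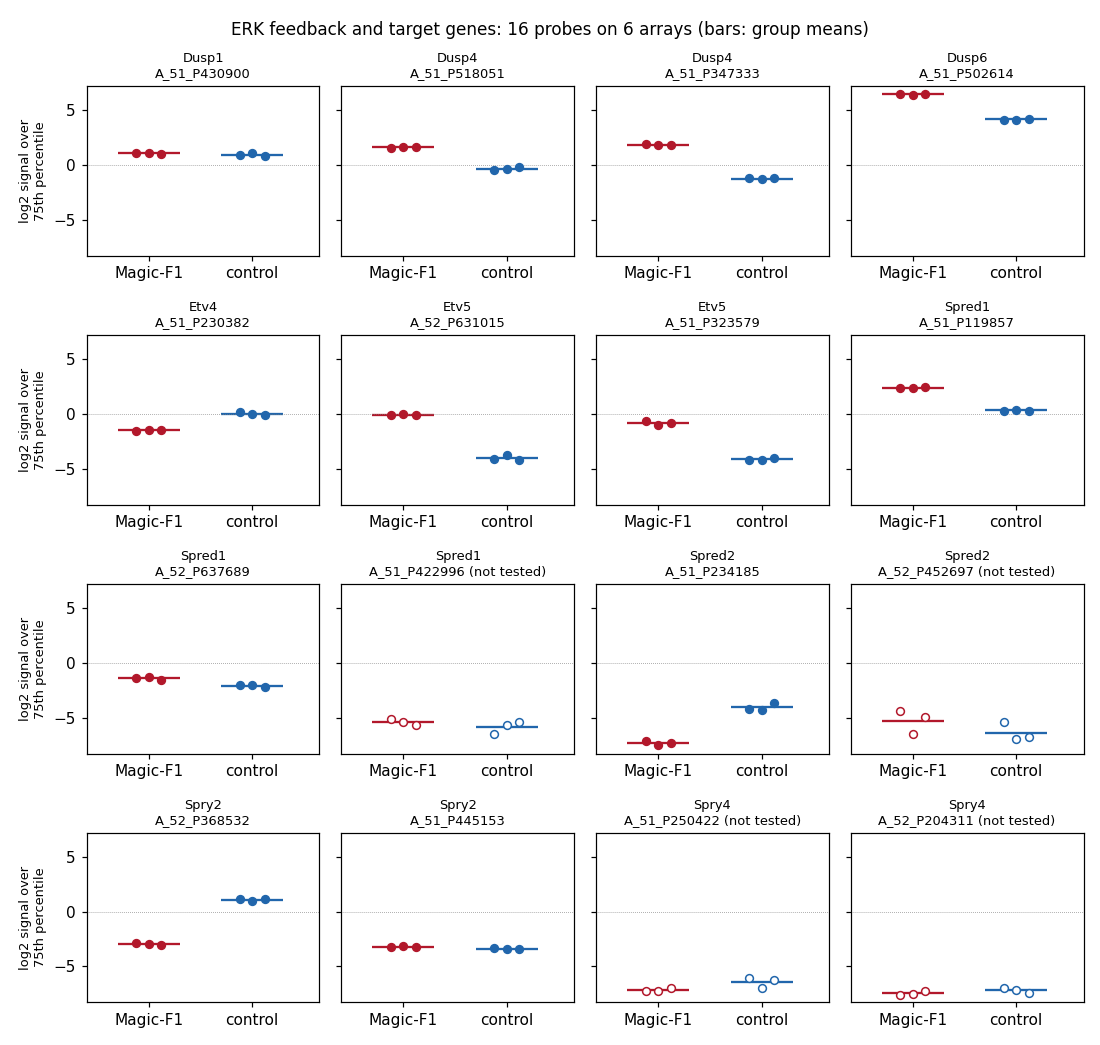
Each panel shows 1 probe, with the log2 signal relative to the array's 75th percentile on the y axis and the 3 Magic-F1 arrays left of the 3 control arrays; bars are group means and open circles mark probes that were not tested. The groups stand apart for 11 of the 12 tested probes, and overlap for Dusp1.

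Dusp6, a cytoplasmic phosphatase specific for ERK, was higher in Magic-F1 cells. It stood at 6.44, 6.40 and 6.46 on the Magic-F1 arrays, against 4.10, 4.10 and 4.20 on the control arrays (log2 signal, replicates 1, 2 and 3). All Magic-F1 arrays were above all control arrays by over 2 log2 units. The rise was 4.91-fold (log2 2.30, SE 0.05, limma adjusted p = 1.31e-07). The probe lies at chr10:98729985-98730044 in mm9, on the plus strand, and 9.06% of all tested probes rose at least as much.

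Dusp4, a nuclear phosphatase that acts on ERK and on the stress kinases, was also higher, by both of its probes. Its brightest probe stood at 1.54, 1.66 and 1.60 in Magic-F1, against −0.43, −0.42 and −0.19 in control cells. That is a 3.86-fold rise (log2 1.95, SE 0.08, limma adjusted p = 1.65e-06). The second probe lies 2701 bases further along chromosome 8, at chr8:35884806-35884865, and rose more, by log2 3.09 (SE 0.04, adjusted p = 3.98e-08), with 1.84 ± 0.03 (SD, n = 3) in Magic-F1 against −1.24 ± 0.03 in control cells. With normexp background correction the second probe rose by log2 2.47. The direction was thus shared and the size was not.

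Dusp1, an immediate early phosphatase of stress and growth factor responses, did not pass the test. It stood at 1.10, 1.09 and 1.03 in Magic-F1, against 0.86, 1.08 and 0.81 in control cells. Control replicate 2 lay among the Magic-F1 values, so the groups overlapped. The log2 change was 0.16 with a 95% interval of −0.04 to 0.35 (limma adjusted p = 0.112), a range that leaves out changes of the size seen for Dusp4 and Dusp6. The call depended on the scaling and on 1 array. Dusp1 was called at log2 0.58 with scaling to the spiked-in transcripts, at 0.29 with median scaling and at 0.24 without control replicate 2 (adjusted p = 0.000795, 0.0372 and 0.0108). It was 0.23 within slide 1 (adjusted p = 0.0438) and 0.01 on slide 2, where each group had a single array. Over the alternatives with a test, its adjusted p ran between 0.000795 and 0.261.

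Spry2, an inducible inhibitor of receptor signalling to RAS, gave opposite answers from its 2 probes. The brightest probe, at chr14:106291385-106291444 on the minus strand, stood at −2.89, −2.91 and −3.02 in Magic-F1, against 1.13, 0.97 and 1.14 in control cells. It was 16.2-fold lower (log2 −4.02, SE 0.07, limma adjusted p = 5.95e-08), and 2.12% of tested probes fell at least as much. The other probe, 456 bases away at chr14:106291901-106291960, stood at −3.25, −3.13 and −3.21 in Magic-F1, against −3.35, −3.44 and −3.41 in control cells. This second probe was low in both groups and slightly higher in Magic-F1 (log2 0.21, SE 0.05, adjusted p = 0.0109).

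The call of the second Spry2 probe depended on the processing, while the fall of the first was called in all 18 alternatives with a test. With normexp background the second probe was at log2 −0.03 (adjusted p = 0.578), and the first at −2.95. Averaging both probes gave −1.91. Across the array, 672 of 4882 genes with 2 or more tested probes (13.8%) had probes called in opposite directions, and 1.11% had probes at least as far apart as those of Spry2 (4.23 log2 units). The direction for Spry2 is therefore that of 1 probe.

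Spred1, which binds neurofibromin and so keeps RAS inactive, was higher. Its brightest probe, at chr2:117007850-117007909, stood at 2.38, 2.37 and 2.39 in Magic-F1, against 0.26, 0.34 and 0.29 in control cells. This is a 4.24-fold rise (log2 2.08, SE 0.04, limma adjusted p = 1.23e-07). The first probe printed above rose less, by log2 0.65 (SE 0.08, adjusted p = 0.000357), at −1.44 ± 0.12 (SD, n = 3) in Magic-F1 against −2.09 ± 0.10 in control cells. With normexp background it rose by log2 0.29. For the other printed probe 0 of 6 arrays were well above background, and it was not tested. The brightest probe carries the accession of a cDNA clone rather than of the RefSeq transcript that both printed probes carry.

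Spred2, the close relative of Spred1, was read near background. Its brightest probe, at chr11:19923715-19923774, stood at −7.11, −7.51 and −7.28 in Magic-F1, against −4.22, −4.27 and −3.71 in control cells. No Magic-F1 array had it well above background, so it entered the test through the control arrays alone and had to differ. Spred2 was at least 2.36-fold lower on the processed signal, a bound set by the lowest signals above background. Limma's adjusted p of 6.38e-06 belongs to the fitted log2 change of −3.23, which takes in the Magic-F1 signals near background. With normexp background Spred2 was 1.60-fold lower (log2 −0.68), less than this bound. The log2 change was −2.45 (limma adjusted p = 0.0198) from the log2 values of the authors' deposited table. A second Spred2 probe was well above background on 1 Magic-F1 array and 0 control arrays and was not tested.

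Spry4, another Sprouty inhibitor induced by ERK, stayed near background by both of its probes on all 6 arrays. Their means were −7.13 and −7.45 in Magic-F1 and −6.42 and −7.17 in control cells (log2 signal, n = 3 each). No direction can be given for it.

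The 2 PEA3 factors went opposite ways. Etv5 stood at −0.14, −0.05 and −0.07 in Magic-F1, against −4.10, −3.72 and −4.22 in control cells by its brightest probe, at chr16:22382377-22382436 on the minus strand. The rise was 15.2-fold (log2 3.93, SE 0.13, limma adjusted p = 7.42e-07), and 2.44% of tested probes rose at least as much. The second Etv5 probe, 969 bases away, rose by log2 3.29 (SE 0.10, adjusted p = 4.86e-07). Each of the 6 arrays read both well above background, but the control signals were low, and with normexp background the rises were 4.03-fold (log2 2.01) and 2.60-fold (log2 1.38).

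Etv4 stood at −1.57, −1.50 and −1.43 in Magic-F1, against 0.16, −0.02 and −0.10 in control cells, by its single probe at chr11:101631443-101631502 on the minus strand. All Magic-F1 arrays lay below all control arrays. It was 2.87-fold lower (log2 −1.52, SE 0.08, limma adjusted p = 5.06e-06). With scaling to the spiked-in transcripts, which moved the median change of all probes by 0.42, Etv4 was at −1.10 and still called.

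**Figure D2:**
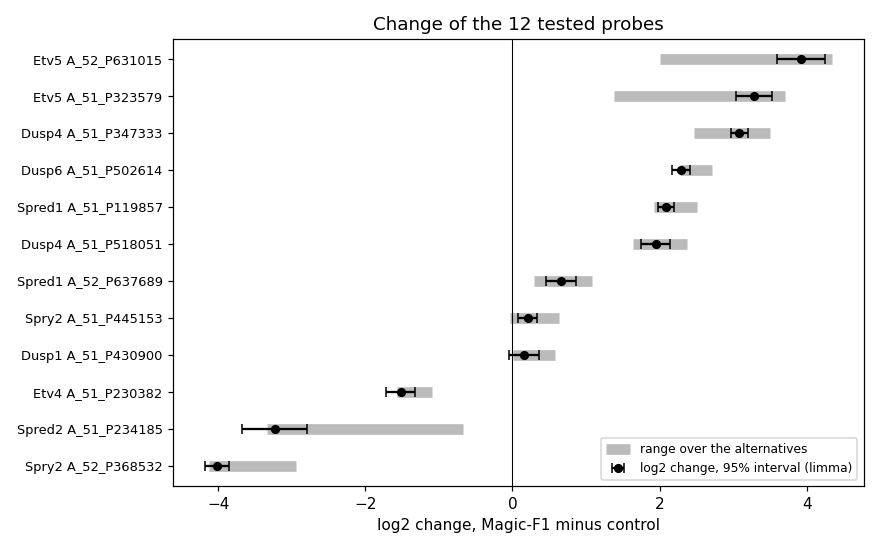
Points show the log2 change (Magic-F1 minus control) of the 12 tested probes with 95% intervals from limma, and grey bars the lowest and highest change over up to 19 alternative settings. Spred2 and both Etv5 probes have the longest bars, and the second Spry2 probe and Dusp1 lie next to 0.

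The 6 arrays lay on 2 slides, with 2 arrays of each group on slide 1 and 1 of each on slide 2. Within slides 1 and 2 the log2 changes were 2.30 and 2.29 for Dusp6 and 1.88 and 2.08 for Dusp4. For Spred1 they were 2.11 and 2.03, and for Etv5 4.05 and 3.67. The falls were −4.09 and −3.88 for Spry2 and −1.53 and −1.49 for Etv4. These 6 genes kept their direction on both slides, while the filter alone fixed that of Spred2.

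**Figure D3:**
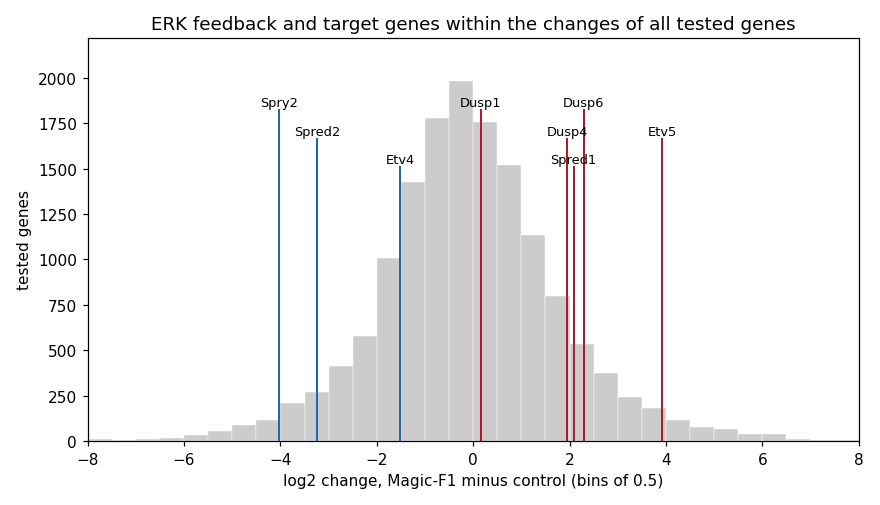
Grey bars count the tested genes by log2 change (Magic-F1 minus control) in bins of 0.5, shown from −8 to 8, and lines mark the 8 tested ERK feedback and target genes by their brightest probe. Etv5 at 3.93 and Spry2 at −4.02 lie towards opposite ends, and Dusp1 at 0.16 lies near the middle.

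Other genes changed by as much. Over the 6 arrays, the profiles nearest to Etv5 after centring, by root mean square difference, were those of Prkch (0.06 log2 units), Tnfrsf26 (0.08) and Mlana (0.08), which rose by log2 3.89, 3.96 and 3.99. Those nearest to Spry2's brightest probe were Ino80c (0.05), Steap1 (0.06) and Palmd (0.06), which fell by log2 4.08, 3.99 and 4.02. Within 0.2 log2 units lay 95 of 12881 named genes for Etv5 and 129 for Spry2. Only 1 of 3 control arrays had Mlana well above background, so its rise and its likeness rest on control values near background. The arrays of a group lay close together, so profiles with changes of similar size score as alike.

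Other inhibitors of the pathway were also split. Of 21 listed genes 18 were tested, of which 9 rose and 6 fell, with a median log2 change of 0.44. Of all tested genes 40.6% were called higher and 47.7% lower, and these shares stand beside the counts of each list below. Dusp7, another phosphatase specific for ERK, stood at 4.31 ± 0.06 (SD, n = 3) in Magic-F1 against 0.24 ± 0.17 in control cells and was 16.8-fold higher (limma adjusted p = 1.64e-07). Sh2b3, an adaptor that dampens cytokine receptor signals, was 7.51-fold higher. Dusp14 was 8.96-fold lower (log2 −2.34 with normexp background) and Dusp2, a phosphatase of activated leukocytes, 6.85-fold lower. Spry1, the gene of Sprouty1, was 2.34-fold lower (log2 −1.23, limma adjusted p = 1.83e-05). The split became 12 higher and 6 lower with spike-in scaling, and 8 and 8 with normexp background.

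The cascade itself was measured in full. All 24 listed genes from adaptors to ERK-activated kinases were tested, of which 15 rose and 6 fell, with a median log2 change of 0.36. Mapk3, which encodes ERK1, was 4.02-fold higher, at 5.36 ± 0.03 (SD, n = 3) in Magic-F1 against 3.36 ± 0.03 in control cells, with a second probe at log2 2.02. The adaptor Grb2 was 4.22-fold higher (second probe log2 3.63), the ERK-activated kinase Rps6ka1 13.9-fold higher (second probe 1.30) and Mknk1 4.72-fold higher (other probes 0.46 and 2.32). Spike-in scaling gave 19 higher and 3 lower.

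Further genes known to follow ERK output were mixed in the same way. Of 18 tested, 7 rose and 9 fell, with a median log2 change of −0.23 that became 0.19 with spike-in scaling (9 higher and 7 lower). Ccnd1, the cyclin that starts the cell cycle in response to growth factors, was 7.49-fold higher, and Etv1, the third PEA3 factor, 3.82-fold higher. Hbegf, a ligand of the EGF receptor, was 4.04-fold lower, and Plaur, the urokinase receptor, 3.15-fold lower. Of the immediate early genes in their own list, 11 of 12 tested were higher and 1 lower, where 40.6% of all tested genes were called higher. Dusp1, described above, was not in this list and did not pass the test. The median of the 12 was 1.48 (0.87 with normexp background). The smallest rise, log2 0.22, was that of Ier2, whose second probe was at −0.51. Among the 12, Atf3 was 6.96-fold, Egr2 5.46-fold, Zfp36 5.40-fold and Btg2 3.45-fold higher. All genes named here except Dusp1 passed limma's test.

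Receptors upstream of the cascade changed in both directions. Of 17 receptors tested, 8 rose and 7 fell, with a median log2 change of 0.14. Kit, 1 of the 7, was near background on every Magic-F1 array. It passed the filter through the control arrays alone, which fixed its direction. Met was 6.25-fold lower by its brightest probe, with log2 −1.69 under normexp background and −1.45 by a second probe. Its ligand Hgf, kept in the same list, was 1.47-fold higher. With Hgf counted in, 9 of 18 rose and 7 fell, and with normexp background 7 rose and 7 fell. Csf1r, the receptor that macrophages depend on, was 67.6-fold higher, and Mertk, a receptor with which they bind dying cells, 14.9-fold higher (log2 3.14 with normexp background). Fgfr4, an FGF receptor of myoblasts, was 46.9-fold lower (log2 −5.55) by its brightest probe. It was at log2 −4.76 with normexp background, and its other probes were at −4.71 and −3.01. Erbb3 was 6.39-fold lower (log2 −2.68), with a second probe at −3.28.

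**Figure D4:**
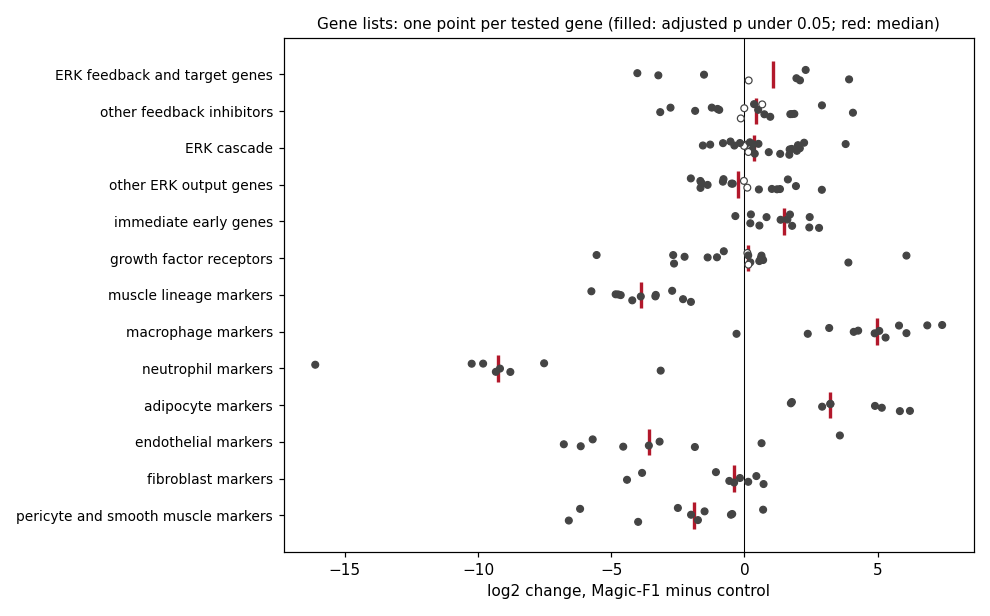
Each point is the log2 change (Magic-F1 minus control) of 1 tested gene, grouped by list, filled where the limma adjusted p was under 0.05, with red lines at the medians of the fitted changes. The ERK feedback and target genes lie on both sides of 0, while muscle and neutrophil markers lie below 0 and 11 of 12 macrophage markers above it.

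Markers of several cell types also differed between the groups. Of muscle lineage markers 11 of 11 tested fell (median log2 change −3.89), and their summed linear signal, in units of the array's 75th percentile, was 127 to 132 in Magic-F1 and 945 to 1005 in control cells. Pax7, which defines satellite cells, was near background on every Magic-F1 array. It passed the filter through the control arrays alone, which fixed its direction in the count of 11. Myf5 was near background on all 6 arrays and was not tested. Myod1, the regulator of activated satellite cells, was at 0.35 in Magic-F1 and 4.57 in control cells. Cdh15 was 28.6-fold and the muscle creatine kinase gene Ckm 53.7-fold lower (log2 −4.97 for Ckm with normexp background).

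Of macrophage markers 11 of 12 rose (median 4.97, sums 1351 to 1417 in Magic-F1 against 414 to 441 in control cells). Mrc1, 1 of the 11, was near background on every control array. It passed the filter through the Magic-F1 arrays alone, which fixed its direction. Lyz2, the marker that fell (log2 −0.30), weighs most in the control sums, at 8.48 in control cells against 8.18 in Magic-F1. A second Lyz2 probe rose by log2 2.97. The complement gene C1qc was 116-fold higher. The chemokine receptor gene Cx3cr1 was 171-fold higher by its brightest probe (log2 7.42), with 5.06 under normexp background and 4.43 by a second probe. Of adipocyte markers 9 of 9 rose (median 3.23, sums 762 to 800 in Magic-F1 against 147 to 150 in control cells). Retn, near background on every control array, had its direction in this count fixed by the filter in the same way. The lipid droplet gene Cidec was 74.1-fold higher (log2 6.21, and 5.25 with normexp background), and the carbonic anhydrase gene Car3 57.0-fold higher.

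Neutrophil markers fell for 8 of 8, with sums of 0.50 to 0.55 in Magic-F1 against 586 to 630 in control cells. On every Magic-F1 array 4 of them were near background. These 4 passed the filter through the control arrays alone, which fixed their direction in the count of 8. The fitted median of −9.26 is therefore no measured change. The median was −8.31 with those 4 at their bounds and −5.60 with normexp background. S100a9 was at least 18853-fold lower on the processed signal, a bound that depends on the background correction, since the normexp log2 change was −11.46. Mpo, the myeloperoxidase gene, was 1210-fold lower (log2 −10.24, and −7.97 with normexp background).

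Endothelial markers fell for 7 of 9, with sums of 20.1 to 21.8 in Magic-F1 against 21.9 to 23.9 in control cells. On every Magic-F1 array 4 of the 7 were near background. These 4 passed the filter through the control arrays alone, which fixed their direction in the count of 7. The fitted median of −3.59 is the value of 1 of these 4. The median was −1.95 with those 4 at their bounds and −0.97 with normexp background. Robo4 was at least 18.7-fold lower on the processed signal, with a normexp log2 change of −1.81. Cldn5 was above background on 1 of 3 Magic-F1 arrays, so it too passed the filter through the control arrays alone. It fell, with a fitted log2 change of −6.78 and −3.68 with normexp background. Vwf, the von Willebrand factor gene, and Kdr rose, by log2 3.58 and 0.64, and both are named after their values were seen. With normexp background Kdr was at −0.03. The brightest endothelial marker was Vwf in Magic-F1 (4.08, against 0.50 in control cells) and Egfl7 in control cells (3.70, against 1.84). Each weighs most in the sums of that group, so the sums do not describe most of the markers.

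Pericyte and smooth muscle markers fell for 9 of 10 (median −1.88, sums 290 to 302 in Magic-F1 against 1185 to 1234 in control cells). Rgs5, near background on every Magic-F1 array, was at least 25.5-fold lower on the processed signal, with a normexp log2 change of −2.25. Its direction in the count of 9 was fixed by the filter, which it passed through the control arrays alone. Kcnj8 was 72.0-fold lower by its brightest probe (log2 −6.17), with −4.02 under normexp background and −3.64 by a second probe. Fibroblast markers fell for 6 of 9 (median −0.39, sums 736 to 749 in Magic-F1 against 1063 to 1092 in control cells), with Ly6a 21.3-fold and Pi16 14.4-fold lower (log2 −3.84 for Pi16, and −2.96 with normexp background). The fibroblast median became 0.03 with spike-in scaling (4 higher and 3 lower) and 0.13 with quantile normalization (4 and 4). The part of these cell types in the changes of the ERK genes was not tested.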

How the data were processed

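Each sample's Cy3-labelled RNA was hybridised to 1 array. The deposited scanner files come from Feature Extraction 10.5.1.1, per the file headers, and hold for each spot an intensity after background subtraction, the raw mean, the local background, flags and a position on mm9. The authors also deposited a table of log2 values, which equal the log2 processed signal for 4 arrays and differ for both arrays numbered 1, so how those 2 columns were scaled is unknown. Its column medians were 3.53, 3.50 and 3.59 for Magic-F1 and 3.32, 3.35 and 3.40 for control arrays. The 75th percentile of signal was 341 to 356 on Magic-F1 and 275 to 292 on control arrays. Between 49.2% and 52.0% of spots were well above background, and 0 were saturated.

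Control spots were left out, 59 to 89 outlier spots per array set to missing, and log2 signals reduced by each array's 75th percentile. Of 41174 probes 21190 were tested with limma 3.58.1 in R 4.3.3 (group as the only term, Benjamini-Hochberg over all tested probes, 2-sided). Precision is limited by there being 3 arrays a group. RefSeq accessions named 25097 probes through a GRCm38.p6 table, and the others kept the files' names. A bound ("at least N-fold") sets a dim group at the lowest signal above background, on the processed signal. Named genes are the listed genes, up to 4 called genes with the largest change per pathway list, 2 such genes per marker list, Met and Hgf, and the 3 nearest profiles to Etv5 and to Spry2, with groups not overlapping in the lists. Pax7, Myf5 and Myod1 are given besides as defining markers of the labelled cells. Vwf, Kdr, Egfl7, Lyz2, Kit, Spry1 and Ier2 were added after their values were seen. Genes and lists were chosen with earlier results of these data known. The 20 alternatives covered background, normalization, spike-ins, filters, the deposited log2 values, variance, slide, replicate number, probe choice and leaving out arrays.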

Additional observations from a re-analysis of the deposited data

How the results depend on the processing

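Between 16044 and 19878 probes were called over 18 alternatives, against 18592, and 18018 to 18682 leaving out 1 array. Of the called probes 47.0% were higher, and 59.6% with spike-in scaling, which gave a median change of 0.32 against −0.10. Between 6 and 8 of the ERK genes were called, against 7 (7 to 8 leaving out 1 array). The count of 6 came from requiring detection on 6 of 6 arrays, and Spred2 drops out there. The second Spry2 probe was the 1 value that changed sign, to −0.033 with normexp background. It was not called without a filter on dim probes, with an intensity trend in the variance, or within slide 1 (adjusted p = 0.0521, 0.104 and 0.124). With the replicate block 18548 probes and 7 of the ERK genes were called. Whether the replicate numbers pair the samples is unknown. Same-numbered deviations correlated at −0.003, 0.11 and 0.07, and differently numbered ones at −0.11 to 0.05. With 3 samples a group, and the arrays numbered 2 alone on slide 2, this check cannot settle a pairing. Signals near background limit Spred2, Spry4 and the control level of Etv5.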
